A study of Mus musculus with 8 samples.

Results

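Collagens are the structural proteins of the extracellular matrix, and the genes that encode their chains were followed here in pancreatic islets that overexpress UCP2 in β-cells. The array carries 44 genes whose symbol has the form of a collagen chain, "Col" followed by a type number, an "a" and a chain number, among 26894 genes with a symbol. They have 92 of its 56605 probes. Each gene is given by its probe with the highest mean over the 8 arrays in the deposited normalized table.

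RNA was measured in 8 islet samples on one-colour Agilent mouse arrays, 4 from βUCP2Tg mice and 4 from WT littermates. βUCP2Tg mice carry a mouse *Ucp2* cDNA driven by the rat *Ins2* promoter, which is active in β-cells, and were backcrossed repeatedly to C57BL6/J. All mice were adult males, and the islets of both groups were picked by hand and incubated with 200 mg/dL glucose for 8 h. The labels do not give the number of mice behind a sample, so n, SD and p refer to samples and may measure only technical spread. A normalized log2 signal of 0 is the 75th percentile of the array's probes. *Ucp2* itself, which checks the labels, had a log2 fold change of 6.24 (limma adjusted p = 9.32e-06), with every βUCP2Tg array above every WT array. A pair of arrays stood apart within their groups. In a list of 12 genes of the hypoxia response, the summed linear signal, where 1 is the 75th percentile, of βUCP2Tg replicate 4 was 202 against 105 to 107.1 on the other βUCP2Tg arrays, and that of WT replicate 1 was 158 against 274 to 291 on the other WT arrays.

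Collagen chains wind in threes around each other, and glycine recurs at a regular spacing along each chain. The fibrillar types I, III and V form the fibers of the islet capsule, type IV forms the sheet of the basement membrane, and type VI forms beaded filaments that bridge the sheet and the fibers. In the pancreas these chains are made mainly by stellate cells, fibroblasts, pericytes and endothelial cells, and mouse β-cells rely largely on the basement membrane of islet capillaries. Islet RNA is a mixture of all these cells, so fewer cells of a type and less RNA per cell cannot be told apart.

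The following sequences show what the array read. The probes are strands of 60 bases, and only 2 of the 44 member probes, those of *Col14a1* and *Col22a1*, lie in the repeat itself, with glycine codons, which start with GG (capitals), at least 4 times at a spacing of 9 bases in a frame without a stop codon. *Col6a1* and *Col16a1* had the lowest adjusted p in each direction. The probe of *Col6a1* has no frame without a stop codon, that of *Col16a1* holds no glycine codon in such a frame, and that of *Col6a2* holds 3 that are not spaced by 9 bases.
*Col14a1* probe: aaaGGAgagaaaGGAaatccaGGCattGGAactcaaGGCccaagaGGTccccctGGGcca
*Col22a1* probe: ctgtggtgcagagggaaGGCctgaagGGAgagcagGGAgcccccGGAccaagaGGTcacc
*Col6a1* probe: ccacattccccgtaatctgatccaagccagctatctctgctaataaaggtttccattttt
*Col6a2* probe: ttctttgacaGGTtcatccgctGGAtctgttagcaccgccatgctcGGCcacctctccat
*Col16a1* probe: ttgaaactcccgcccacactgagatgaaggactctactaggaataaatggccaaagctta

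Promoter windows of 300 bases, from RefSeq on GRCm38.p6, are shown for the pair *Col6a1* and *Col6a2*, which lie on chromosome 10 with 2 genes between them and whose groups of arrays did not overlap, and for *Col16a1*, which had the lowest adjusted p among the members with a negative fold change. Capitals mark the GC box (GGGCGG), the CAAT box (CCAAT) and the TATA box (TATAAA), searched on both strands. The *Col6a1* window (chr10:76725995-76726294, minus strand) holds none of them. The *Col6a2* window (chr10:76623581-76623880, minus strand, 1 of 2 windows of this gene) holds 1 GC box, and the *Col16a1* window (chr4:130047590-130047889, plus strand) holds 2 GC boxes and 1 CAAT box.
*Col6a1*: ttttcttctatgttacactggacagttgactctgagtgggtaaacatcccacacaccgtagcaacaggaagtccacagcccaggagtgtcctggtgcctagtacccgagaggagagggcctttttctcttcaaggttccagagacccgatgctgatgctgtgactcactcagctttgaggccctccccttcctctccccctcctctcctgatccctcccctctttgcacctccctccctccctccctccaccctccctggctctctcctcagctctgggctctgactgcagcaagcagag
*Col6a2*: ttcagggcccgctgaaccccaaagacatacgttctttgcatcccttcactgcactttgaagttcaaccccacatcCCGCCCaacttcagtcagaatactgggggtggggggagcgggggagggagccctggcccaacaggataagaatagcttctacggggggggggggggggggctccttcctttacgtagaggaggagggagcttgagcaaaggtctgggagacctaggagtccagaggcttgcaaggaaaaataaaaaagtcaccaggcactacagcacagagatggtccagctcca
*Col16a1*: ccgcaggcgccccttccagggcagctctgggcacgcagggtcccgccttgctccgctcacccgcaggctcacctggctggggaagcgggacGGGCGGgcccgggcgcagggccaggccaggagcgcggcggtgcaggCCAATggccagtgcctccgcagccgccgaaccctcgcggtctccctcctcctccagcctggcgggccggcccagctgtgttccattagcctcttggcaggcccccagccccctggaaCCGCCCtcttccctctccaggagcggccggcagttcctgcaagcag

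Windows were found for 35 of the 44 genes, 38 windows in all. The GC box was in 60.5% of them and in 35.7% of all 32851 promoter windows, the CAAT box in 34.2% and 37.4%, and the TATA box in 13.2% and 13.6%. *Col4a1* and *Col4a2*, the chains of the common basement membrane heterotrimer, lie head to head on chromosome 8 and share promoter sequence. The window of *Col4a2* (chr8:11312555-11312854, plus strand) is printed here with the 78 bases that also lie in the window of *Col4a1* (chr8:11312777-11313076, minus strand) in capitals.
*Col4a2*: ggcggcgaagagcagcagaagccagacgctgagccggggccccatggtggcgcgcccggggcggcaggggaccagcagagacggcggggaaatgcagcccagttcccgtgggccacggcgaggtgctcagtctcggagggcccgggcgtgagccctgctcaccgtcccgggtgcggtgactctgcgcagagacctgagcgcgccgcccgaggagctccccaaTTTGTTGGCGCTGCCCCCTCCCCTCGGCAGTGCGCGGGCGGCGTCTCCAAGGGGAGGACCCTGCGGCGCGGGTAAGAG

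Of the 44 collagen genes, 24 were well above background on all 8 arrays, a further 6 on 4 to 7 arrays, 4 on 1 to 3 arrays and 10 on none. The 30 genes measured on at least 4 arrays entered the comparison, fitted with limma over all 35363 probes that met this filter, with Benjamini-Hochberg adjustment over all of them. Calls needed an adjusted p under 0.05 and a change over 1.5-fold. The 10 genes on no array were *Col2a1*, *Col4a3*, *Col4a4*, *Col4a6*, *Col5a2*, *Col10a1*, *Col12a1*, *Col15a1*, *Col19a1* and *Col24a1*, with signals between -8.31 and -5.49. They include the cartilage chains *Col2a1* and *Col10a1* and the chains of the basement membrane of kidney glomeruli, *Col4a3* and *Col4a4*. *Col9a1* and *Col28a1* were measured on 1 βUCP2Tg array and no WT array. *Col23a1* and *Col25a1*, which encode transmembrane collagens, were measured on 3 WT arrays and no βUCP2Tg array. For *Col25a1* the bound was 1.39-fold lower in βUCP2Tg islets, and its groups did not overlap. This gene was noticed through the WT arrays that measured it, so neither value is support for a difference. The WT mean in the bound includes an array that was not well above background. The other probes of *Col25a1* were measured on no array. The bound for *Col23a1* was 1.10-fold, but its groups overlapped, with WT replicate 2 (-6.76) below 3 of the 4 βUCP2Tg arrays (exact permutation p = 0.457, two-sided), so no direction is given for it. Neither gene was part of the limma fit. For such a bound, the WT mean was set against the higher of the βUCP2Tg probe's own signal and the lowest signal well above background, array by array.

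*Col6a1* was the only collagen gene called, higher in βUCP2Tg islets. No collagen gene was called lower, and 1 call in 30 genes stands beside 0.482% of all 17857 genes tested called in either direction, 0.274% of them higher. At an unadjusted p under 0.05 there were 9 collagen genes (30%), beside 24.5% of all genes. In the higher direction these were *Col6a1*, *Col6a2*, *Col8a2* and *Col22a1* (4 genes, beside 12.9% of all genes), and in the lower direction *Col7a1*, *Col13a1*, *Col16a1*, *Col20a1* and *Col26a1* (5 genes, beside 11.6%). The arrays of the groups did not overlap for 7 of the 30 genes (23.3%), beside 13.1% of all genes. In 4 of these the βUCP2Tg arrays were higher, beside 6.36% of all genes, and in 3 lower, beside 6.73%.

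*Col8a2* and *Col22a1* reached the filter through their βUCP2Tg arrays, so the 24 genes measured on all 8 arrays were also counted alone. Among them, 7 had an unadjusted p under 0.05 (29.2%, beside 24.7% of the 16471 genes measured on all 8 arrays), and for 5 the groups did not overlap (20.8%, beside 13.4%). By direction, 2 were higher and 5 lower at that p, beside 2116 and 1955 of the 16471 genes. The groups did not overlap for 2 in the higher and 3 in the lower direction, beside 1056 and 1155 of the 16471 genes. The median log2 fold change of the 30 collagen genes was 0.06, and that of all genes 0.03. The median of its absolute size was 0.29 for the collagen genes and 0.20 for all genes. The collagen genes thus lay on both sides of 0, 16 above and 14 below.

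**Figure D1:**
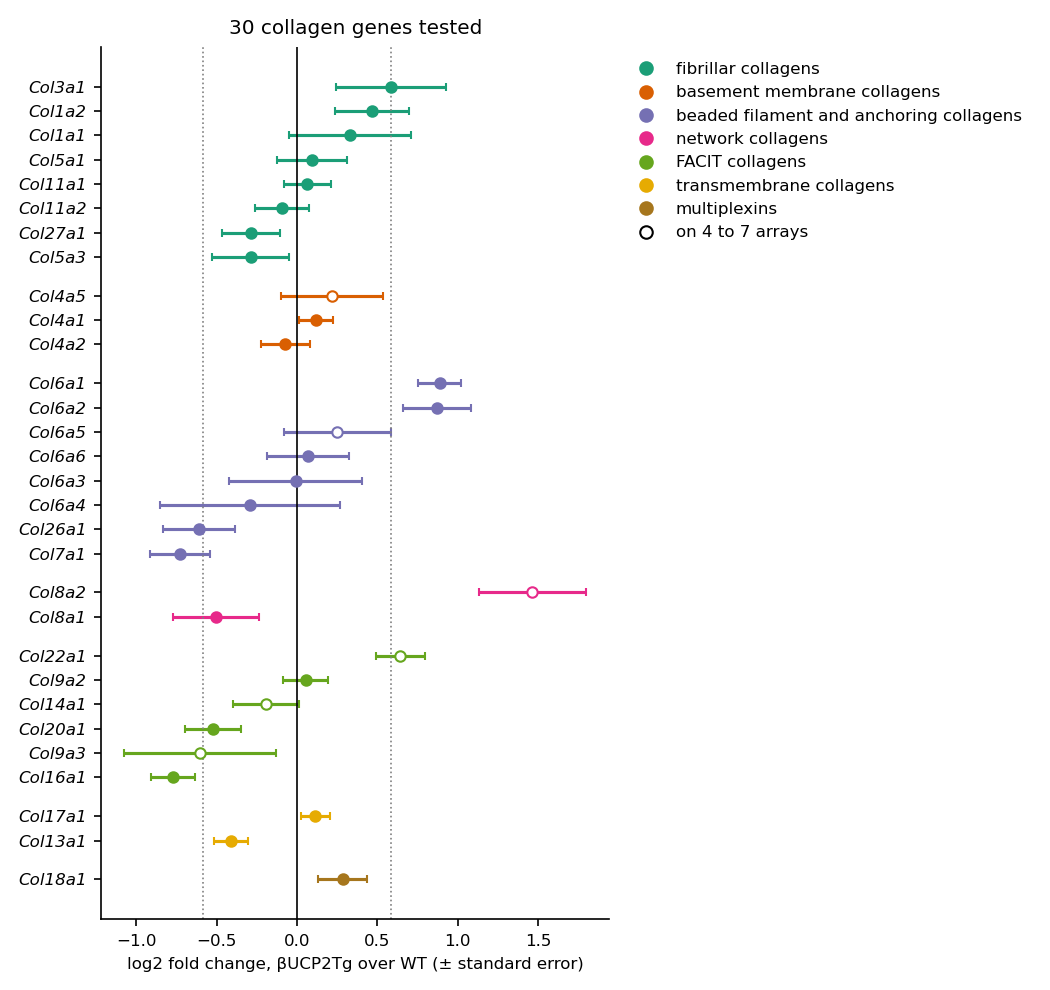
Log2 fold change of each of the 30 collagen genes tested (βUCP2Tg over WT, x axis), with its SE from limma, ordered within its class. The dotted lines mark 1.5-fold, open points are genes well above background on 4 to 7 arrays, and *Col6a1*, at 0.89 on the log2 scale, is the only gene called. *Col8a2* has a larger value, 1.46, with a wider error, and only 1 WT array measured its probe above background.

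The counts were repeated without the arrays that stood apart. Without WT replicate 1, 4 collagen genes were called higher (*Col6a1*, *Col6a2*, *Col8a2* and *Col22a1*) and 2 lower (*Col8a1* and *Col16a1*), and 11.4% of all genes were called. Without βUCP2Tg replicate 4, 3 were called higher (*Col6a1*, *Col6a2* and *Col8a2*) and 3 lower (*Col7a1*, *Col16a1* and *Col20a1*), and 3.52% of all genes were called. With both arrays left out, an alternative chosen after seeing the data, 3 collagen genes were called higher (*Col6a1*, *Col6a2* and *Col22a1*) and 4 lower (*Col7a1*, *Col8a1*, *Col16a1* and *Col20a1*), and 15.7% of all genes were called. *Col8a2* no longer met the filter of 4 arrays in this fit and was not tested. Over the 24 collagen genes measured on all 8 arrays, which leaves out *Col8a2* and *Col22a1*, the counts were 2 higher and 2 lower without WT replicate 1 (beside 11.2% of the genes measured on all 8 arrays), 2 and 3 without βUCP2Tg replicate 4 (beside 3.43%), and 2 and 4 without both (beside 15.6%). When any other single array was left out, 0 collagen genes were called by limma, with 8 to 11 of them at an unadjusted p under 0.05, and few genes of any kind were called in these fits, 0.0283%, 0.0282% and 0.0283% of all genes without βUCP2Tg replicates 1, 2 and 3 and 0.0961%, 0.0565% and 0.0898% without WT replicates 2, 3 and 4.

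The beaded filament of type VI is built from an α1, an α2 and an α3 chain. *Col6a1*, which encodes the α1 chain, had normalized log2 signals of -1.23, -1.32, -0.90 and -1.30 in βUCP2Tg replicates 1 to 4 and of -2.34, -2.0, -1.89 and -2.07 in WT replicates 1 to 4. All βUCP2Tg arrays lay above all WT arrays. The log2 fold change was 0.89 (standard error, SE, 0.14, limma adjusted p = 0.0456), which is 1.85-fold. The exact permutation test of this gene alone gave p = 0.0286 (two-sided), the smallest that 4 arrays against 4 allow. The call held in the 2 fits that left out WT replicate 1 or βUCP2Tg replicate 4 (limma adjusted p = 0.0159 and 0.0308) and not in the 6 others, where the adjusted p reached 0.183, while the log2 fold change stayed between 0.79 and 0.95. Over 12 alternatives to the processing the adjusted p of *Col6a1* lay between 0.0228 and 0.131. The call was lost under 4 of them (no filter, the filter at 1 array, an ordinary Student's t-test after adjustment and the replicate block), with the log2 fold change at 0.89 in each. A 2-fold limit lost the call as well, and normexp kept it with a log2 fold change of 0.59.

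*Col6a2*, which encodes the α2 chain, had signals of -4.17, -4.04, -3.66 and -4.52 in βUCP2Tg islets and of -4.69, -5.39, -4.93 and -4.87 in WT islets. The groups did not overlap here either, although βUCP2Tg replicate 4 lay close to WT replicate 1. For *Col6a2* the log2 fold change was 0.87 (SE 0.21, limma adjusted p = 0.0862), and *Col6a2* was not called. With background correction by normexp, a method that here includes an offset of 50, it was 0.10.

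*Col6a3*, which encodes the α3 chain, had signals of -1.55, -1.87, -1.49 and -2.23 in βUCP2Tg islets and of -0.65, -2.73, -2.19 and -1.53 in WT islets. The WT arrays lay on both sides of the βUCP2Tg arrays, with WT replicate 1 highest and WT replicate 2 lowest. Its log2 fold change was -0.01 (SE 0.41, limma adjusted p = 0.993), and another probe of this gene gave -0.01 with an SE of 0.21. The sign of *Col6a3* turned under several settings, for example to 0.37 without WT replicate 1 and to 0.52 without that array and βUCP2Tg replicate 4. The chains *Col6a4*, *Col6a5* and *Col6a6*, which can take the place of the α3 chain, had log2 fold changes of -0.29, 0.25 and 0.07, and the groups overlapped for each.

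**Figure D2:**
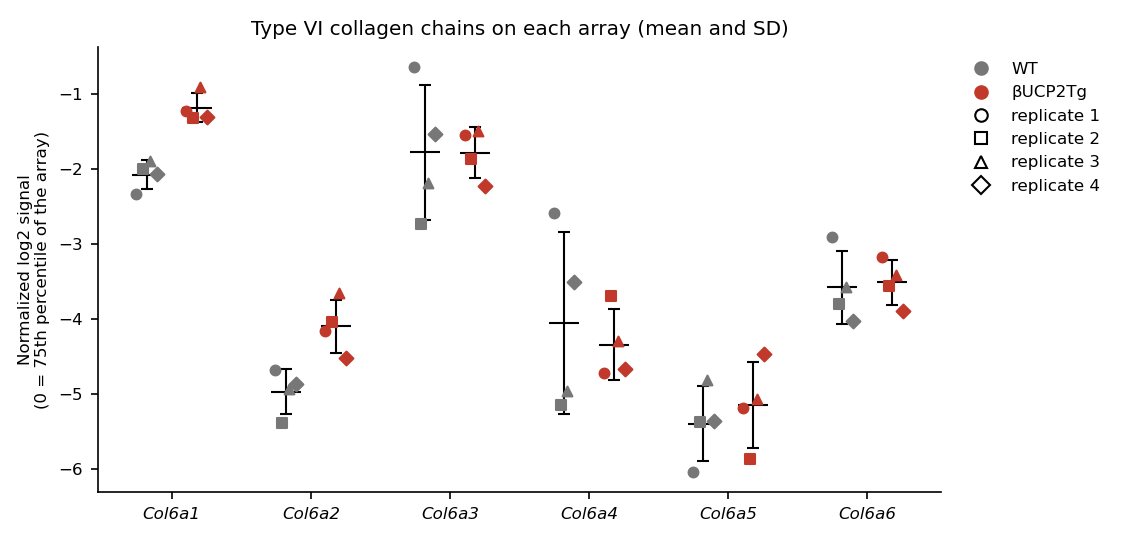
Normalized log2 signal (y axis) of the type VI collagen chains on each array, WT in grey and βUCP2Tg in red, with the mean and SD of 4 arrays per group. For *Col6a1* and *Col6a2* the groups do not overlap, whereas for *Col6a3* the WT arrays run from -2.73 to -0.65.

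Of the fibrillar collagens, 8 of 11 were tested, none was called and none had an unadjusted p under 0.05 by the probe used for the gene. *Col1a1* and *Col1a2* encode the chains of type I, the main collagen of fibers. *Col1a1* had signals of -3.12, -3.07, -2.74 and -3.00 in βUCP2Tg islets and of -4.44, -3.31, -2.35 and -3.15 in WT islets. The βUCP2Tg arrays lay close together, inside the range of the WT arrays. The log2 fold change of *Col1a1* was 0.33 (SE 0.38, limma adjusted p = 0.613), and it was -0.04 without WT replicate 1, the lowest array, and 0.65 without WT replicate 3, the highest.

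*Col1a2* had signals of -0.65, -0.61, -0.43 and -0.63 in βUCP2Tg islets and of -1.5, -1.10, -0.32 and -1.27 in WT islets, and its log2 fold change was 0.47 (SE 0.23, limma adjusted p = 0.247). *Col3a1*, which encodes type III, the partner of type I in the fibers of soft tissue, had signals of -2.58, -2.39, -2.39 and -2.66 in βUCP2Tg islets and of -4.06, -3.07, -2.17 and -3.06 in WT islets. Its log2 fold change was 0.59 (SE 0.34, limma adjusted p = 0.313). For both genes WT replicate 3 was the highest of all arrays and the other WT arrays lay below every βUCP2Tg array. The log2 fold change of *Col3a1* was 0.26 without WT replicate 1, 0.89 without WT replicate 3 and 0.15 with normexp, and that of *Col1a2* was 0.31 and 0.71 without these arrays.

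Over the 8 arrays, *Col1a1* followed *Col1a2* (Pearson's r = 0.864, exact permutation p = 0.000347, Spearman's rho = 0.952, exact permutation p = 0.00114) and *Col3a1* (r = 0.95, exact permutation p = 0.000496, rho = 0.929, exact permutation p = 0.00223). Adjusted over the 3 pairs tested of 6 listed, the exact p of r was 0.000744 for each of these. Without WT replicates 1 and 3, the arrays farthest from the median of *Col1a1*, r was 0.766 (exact permutation p = 0.0667) and 0.746 (exact permutation p = 0.0722) over 6 arrays, where neither p passed 0.05. Slide position, genotype and array are shared by the points of each pair. *Col6a1* separates the groups, so no pooled correlation is given for it.

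Type V regulates the width of fibers. *Col5a1* had signals of -2.84, -3.03, -2.73 and -3.36 in βUCP2Tg islets and of -3.34, -2.73, -2.77 and -3.51 in WT islets, and *Col5a3* had -2.36, -2.50, -2.01 and -3.03 against -2.40, -1.70, -2.24 and -2.40. The groups overlapped for both genes, with βUCP2Tg replicate 4 the lowest of all arrays for *Col5a3*. Their log2 fold changes were 0.09 (SE 0.22, limma adjusted p = 0.815) and -0.29 (SE 0.24, limma adjusted p = 0.481), and that of *Col5a1* was -0.02 with normexp. That of *Col5a3* was -0.10 without βUCP2Tg replicate 4 and -0.13 without WT replicate 2, and -0.44 without βUCP2Tg replicate 3. The remaining tested fibrillar genes, *Col11a1*, *Col11a2* and *Col27a1*, had log2 fold changes of 0.06, -0.09 and -0.29. The probes of *Col11a2* and of *Col27a1* disagreed in size. A dimmer probe of *Col11a2*, measured on all 8 arrays, gave -0.57 with groups that did not overlap (limma adjusted p = 0.0987), and a dimmer probe of *Col27a1* gave -0.63 (limma adjusted p = 0.306).

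Of the basement membrane chains, 3 of 6 were tested and none was called. *Col4a1* had signals of 1.5, 1.54, 1.73 and 1.55 in βUCP2Tg islets and of 1.25, 1.43, 1.55 and 1.61 in WT islets, which gave 0.12 on the log2 scale (SE 0.11, limma adjusted p = 0.522), 0.05 without WT replicate 1 and 0.07 without βUCP2Tg replicate 3. *Col4a2* had signals of 1.06, 0.95, 1.12 and 1.16 in βUCP2Tg islets and of 0.70, 1.22, 1.36 and 1.31 in WT islets, which gave -0.07 on the log2 scale (SE 0.15, limma adjusted p = 0.793), -0.22 without WT replicate 1 and -0.0015 without WT replicate 3. The groups overlapped for both chains, and WT replicate 1 was the lowest array for each. Pearson's r between these chains, whose promoter windows share sequence, was 0.624 over the 8 arrays (exact permutation p = 0.103, adjusted 0.103; rho = 0.452, exact permutation p = 0.267), and 0.237 without βUCP2Tg replicate 3 and WT replicate 1 (exact permutation p = 0.669).

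*Col4a5*, a chain of other basement membranes, was dim, with signals of -4.57, -5.35, -5.60 and -4.77 on the βUCP2Tg arrays and of -4.52, -5.81, -5.46 and -5.38 on the WT arrays, and 2 of the WT arrays measured it. Its log2 fold change was 0.22 (SE 0.32, limma adjusted p = 0.699), and -0.17 with normexp, and with 1 array left out it ran from 0.05 (without WT replicate 2) to 0.47 (without WT replicate 1). *Col18a1*, a collagen and heparan sulfate proteoglycan of basement membranes whose end is released as endostatin, had signals of -0.06, 0.22, 0.46 and -0.16 in βUCP2Tg islets and of -0.41, -0.07, -0.10 and -0.09 in WT islets. WT replicate 1 was the lowest array, and the groups overlapped through βUCP2Tg replicate 4. The log2 fold change of *Col18a1* was 0.28 (SE 0.15, limma adjusted p = 0.285), and 0.17 without βUCP2Tg replicate 3.

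**Figure D3:**
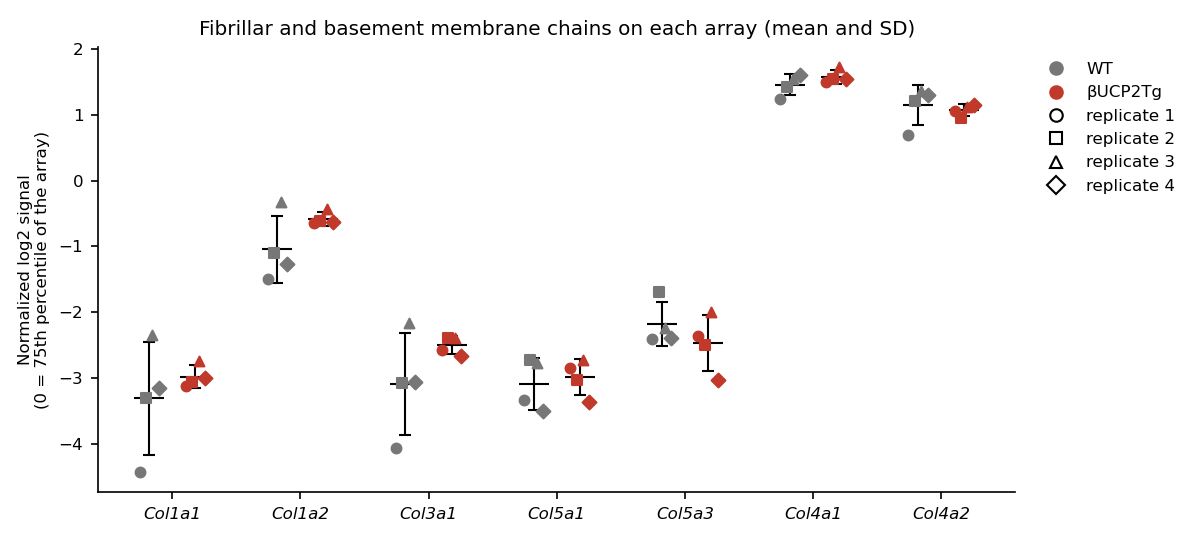
Normalized log2 signal (y axis) of fibrillar chains and of the type IV chains *Col4a1* and *Col4a2* on each array, WT in grey and βUCP2Tg in red, with the mean and SD of 4 arrays per group. *Col1a1*, *Col1a2* and *Col3a1* share the order of the extreme WT arrays, replicate 1 lowest and replicate 3 highest, and the βUCP2Tg arrays lie close together.

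*Col16a1*, a fibril-associated collagen (FACIT), had signals of 0.06, -0.10, -0.04 and -0.23 in βUCP2Tg islets and of 0.60, 1.04, 0.64 and 0.50 in WT islets. Every βUCP2Tg array lay below every WT array. The log2 fold change was -0.77 (SE 0.13), and the adjusted p of 0.0535 by limma lay just outside the threshold. Under the alternatives to the processing it lay between 0.028 and 0.142, and *Col16a1* was called with an intensity trend in limma, with normexp, with the filter at all 8 arrays and with the mean of a gene's probes. Its other probes were measured on 1 array or none.

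*Col7a1*, which encodes the anchoring fibrils that tie epithelia to the underlying matrix, had signals of -1.28, -1.31, -1.72 and -0.90 in βUCP2Tg islets and of -0.54, -0.35, -0.49 and -0.91 in WT islets. The groups overlapped through βUCP2Tg replicate 4 and WT replicate 4. For *Col7a1* the log2 fold change was -0.73 (SE 0.19, limma adjusted p = 0.0917), and the gene was called with normexp (limma adjusted p = 0.035). *Col26a1*, a short collagen with an EMI domain, had signals of -2.55, -2.47, -2.71 and -2.43 in βUCP2Tg islets and of -2.14, -1.22, -2.20 and -2.17 in WT islets. Every βUCP2Tg array lay below every WT array, and WT replicate 2 stood well above the others. Its log2 fold change was -0.61 (SE 0.22, limma adjusted p = 0.147), and -0.37 without that array. The other probes of *Col26a1* gave -0.60 (limma adjusted p = 0.207) and -0.22 (limma adjusted p = 0.406), with groups that overlapped for both.

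*Col13a1*, *Col20a1* and *Col22a1* lay outside the rule for named genes and were chosen after their values were seen. *Col13a1*, a transmembrane collagen of cell junctions, had signals of 1.5, 1.30, 1.25 and 1.19 in βUCP2Tg islets and of 1.60, 1.71, 1.67 and 1.90 in WT islets. The groups did not overlap, and the log2 fold change was -0.41 (SE 0.11, limma adjusted p = 0.0919), whereas 2 other probes of *Col13a1* gave -0.34 and 0.25, so its probes disagree in direction. *Col20a1*, another FACIT, had signals of -1.40, -1.44, -1.47 and -0.80 in βUCP2Tg islets and of -0.87, -0.53, -0.68 and -0.94 in WT islets. The groups overlapped through βUCP2Tg replicate 4 alone, and the log2 fold change was -0.52 (SE 0.17, limma adjusted p = 0.128) with this array and -0.68 without it.

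Some of the differences lay in dim probes. *Col8a2*, a chain of the network-forming type VIII that endothelial cells lay down, had signals of -4.83, -4.16, -4.88 and -5.26 in βUCP2Tg islets and of -5.66, -7.01, -6.47 and -5.85 in WT islets. All 4 βUCP2Tg arrays lay above the WT arrays, of which 1 measured the probe above background. The log2 fold change was 1.46 (SE 0.33, limma adjusted p = 0.0823), and 0.06 with normexp. *Col8a1*, the other type VIII chain, was measured on all arrays, with signals of -2.55, -2.89, -2.66 and -2.23 in βUCP2Tg islets and of -2.85, -1.58, -1.92 and -1.99 in WT islets. Here WT replicate 1 lay among the βUCP2Tg arrays and the other WT arrays above them, and the log2 fold change was -0.50 (SE 0.27, limma adjusted p = 0.275), -0.76 without WT replicate 1 and -0.33 without WT replicate 2.

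*Col22a1*, a FACIT of tissue junctions such as that of muscle and tendon, had signals of -4.65, -5.13, -5.21 and -4.96 in βUCP2Tg islets and of -5.48, -5.76, -5.44 and -5.84 in WT islets. The groups did not overlap, with 2 WT arrays above background. For *Col22a1* the log2 fold change was 0.64 (SE 0.15, limma adjusted p = 0.0845), and its sign turned with normexp, to -0.05. Another tested probe of *Col22a1*, measured on 5 arrays, gave 0.22 (limma adjusted p = 0.797), and its groups overlapped. *Col14a1*, a FACIT that binds type I fibers, was measured on 2 arrays of each group, with signals of -5.96, -5.63, -5.57 and -5.56 in βUCP2Tg islets and of -5.16, -5.94, -5.11 and -5.73 in WT islets, which gave -0.19 on the log2 scale (SE 0.21, limma adjusted p = 0.582), -0.10 without βUCP2Tg replicate 1 and -0.35 without WT replicate 2. The remaining tested members, *Col9a2*, *Col9a3* and *Col17a1*, had log2 fold changes of 0.05, -0.60 and 0.12, and the groups overlapped for each.

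**Figure D4:**
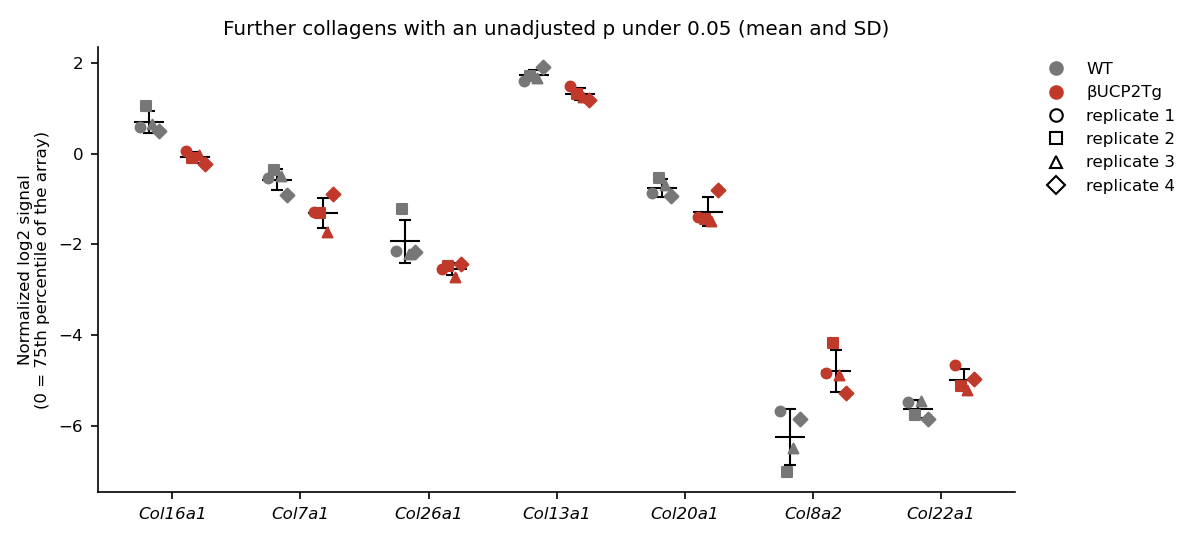
Normalized log2 signal (y axis) on each array of the other collagen genes with an unadjusted p under 0.05, WT in grey and βUCP2Tg in red, with the mean and SD of 4 arrays per group. The groups are separate for *Col16a1*, *Col26a1*, *Col13a1*, *Col8a2* and *Col22a1*, and overlap for *Col7a1* and *Col20a1* through βUCP2Tg replicate 4. The signals of *Col8a2* and *Col22a1* lie below -4.

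Collagen chains are hydroxylated and folded in the endoplasmic reticulum, trimmed and cross-linked outside the cell, bound by receptors and cut by proteases, and genes of these steps were counted from lists. The genes named from these lists were chosen after their values were seen. In the list of modification and folding, 22 of 23 genes were tested and 0 were called by limma. At an unadjusted p under 0.05 there were 3 genes in the higher and 4 in the lower direction. That is 31.8%, beside 24.5% of all genes (12.9% higher and 11.6% lower). The largest differences were those of *Plod2*, a lysyl hydroxylase, and of *P4ha2* and *P4ha1*, subunits of prolyl hydroxylase, with log2 fold changes of -1.43, -1.27 and -1.22 (limma adjusted p = 0.123, 0.0862 and 0.143). For each of the 3 genes βUCP2Tg replicate 4 lay above WT replicate 1, and for *Plod2* also above WT replicate 2, so the groups overlapped. *P4ha1*, *P4ha2* and *Plod2* are known to respond to low oxygen, and 9 of the 12 genes of the hypoxia response list had an unadjusted p under 0.05, all with negative log2 fold changes (75%, beside 11.6% of all genes in this direction). Of the 12, 0 were called by limma and the groups did not overlap for 1 (8.33%, beside 13.1% of all genes). The part of this response in the result was not tested.

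Of the genes of cleavage and cross-linking, 13 of 18 were tested and 0 were called by limma. At an unadjusted p under 0.05 there were 3 in the higher and 1 in the lower direction (30.8%, beside 24.5% of all genes). *Pcolce*, which speeds the trimming of fibrillar procollagen, had signals of -1.77, -1.59, -1.58 and -1.66 in βUCP2Tg islets and of -2.29, -2.14, -2.08 and -2.19 in WT islets. The groups were well apart, and the log2 fold change was 0.53 (SE 0.09, limma adjusted p = 0.053). *Loxl1*, a lysyl oxidase, had a log2 fold change of 0.55 (limma adjusted p = 0.0845) with groups that did not overlap. The gene in the lower direction was *Bgn*, with -0.32 (limma adjusted p = 0.173) and groups that overlapped.

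Of the collagen receptors, 6 of 10 were tested and 0 were called. At an unadjusted p under 0.05 there were 2, both in the higher direction (33.3%, beside 24.5% of all genes, 12.9% in this direction). These were *Ddr1*, a collagen-activated tyrosine kinase, with a log2 fold change of 0.56 (limma adjusted p = 0.11), and *Itga2*, an integrin chain, with 0.98 (limma adjusted p = 0.148). Of the genes of collagen breakdown, 10 of 13 were tested and 0 were called, with 2 at an unadjusted p under 0.05 in each direction (40%, beside 24.5% of all genes). *Timp3*, a matrix-bound inhibitor of metalloproteinases, had signals of 1.95, 1.90, 2.09 and 2.03 in βUCP2Tg islets and of 1.18, 1.09, 1.58 and 1.29 in WT islets. The groups did not overlap, and the log2 fold change was 0.71 (SE 0.12, limma adjusted p = 0.053). In the lower direction were *Ctsk*, with -0.27 (limma adjusted p = 0.165) and groups that did not overlap, and *Timp4*, with -0.56 (limma adjusted p = 0.191) and groups that overlapped. The largest change of this list was that of *Mmp13*, with -1.12 (limma adjusted p = 0.45).

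Of the other basement membrane proteins, 14 of 16 were tested and 0 were called, with 1 at an unadjusted p under 0.05 (7.14%, beside 24.5% of all genes). This was *Lama4*, a laminin chain of vessel walls, with a log2 fold change of 0.49 (limma adjusted p = 0.0934) and groups that did not overlap. Of the TGF-β and matrix regulators, 10 of 12 were tested and 0 were called. *Tgfb1*, which raises collagen synthesis in fibroblasts, had a log2 fold change of 0.49 (limma adjusted p = 0.0941) with groups that did not overlap, and *Tgfb3* had -0.55 (limma adjusted p = 0.117).

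Markers of the cells that an islet preparation can hold were summed on each array on the scaled, linear signal. For stellate cells, pericytes and fibroblasts, 10 of 12 markers were tested, 0 were called by limma, and the median log2 fold change was -0.003. At an unadjusted p under 0.05 there were 3, all in the higher direction (30%, beside 24.5% of all genes, 12.9% in this direction). The sum of this list was 12.6 to 14.1 on the βUCP2Tg arrays and 12 to 16.6 on the WT arrays. *Pdgfra* and *Dpt*, defining fibroblast genes, were well above background on no array, whereas *Pdgfrb*, the pericyte receptor, was measured on all 8 with a log2 fold change of 0.40 (limma adjusted p = 0.1) and groups that did not overlap. The contractile genes *Acta2* and *Tagln* had -0.43 (limma adjusted p = 0.246) and -0.16, and 5 of the 10 tested markers had positive and 5 negative log2 fold changes. The endothelial markers were all measured, 12 of 12 tested and 0 called by limma, with sums of 32 to 36.7 and of 30.4 to 37.4. At an unadjusted p under 0.05 there were 5 in the higher and 1 in the lower direction (50%, beside 24.5% of all genes), the groups did not overlap for 3, all with the higher signals in βUCP2Tg islets (25%, beside 13.1% of all genes, 6.36% in this direction), and the median log2 fold change was 0.28.

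For the collagen genes together, the sum was 13.8 to 14.9 on the βUCP2Tg arrays and 14.1 to 16.6 on the WT arrays. The 13 acinar markers tested all had negative log2 fold changes, with a median of -1.80, 0 of them called, and their sums of 17.6 to 263 on the βUCP2Tg arrays and 28.5 to 455 on the WT arrays overlapped widely. Of the macrophage markers, *Cd14* was called lower in βUCP2Tg islets (log2 fold change -2.10, limma adjusted p = 0.048), 1 of 8 beside 0.207% of all genes called lower, and the sums were 9.01 to 11.0 and 11.7 to 14.9. The other 7 of the 8 macrophage markers were not called. In the whole list 3 log2 fold changes were positive and 5 negative, and *C1qa*, a complement gene, had 0.66 (limma adjusted p = 0.0823) with groups that did not overlap. The sums of the duct markers were 38 to 44.8 and 27.9 to 62.9, those of the Schwann cell markers 1.17 to 1.38 and 1.29 to 1.82, and those of the β-cell markers, which define the labelled tissue, 985 to 1301 and 1225 to 1278. Of the 7 duct markers tested 0 were called, and 3 had an unadjusted p under 0.05 (42.9%, beside 24.5% of all genes). These were *Krt19* at -1.63 (limma adjusted p = 0.0686), with groups that did not overlap, *Sox9* at -0.88 (limma adjusted p = 0.0895) and *Krt7* at 0.70 (limma adjusted p = 0.128). The 6 Schwann cell markers tested all had negative log2 fold changes, with a median of -0.25 and 0 called. The part of any of these cell types in the collagen values was not tested.

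**Figure D5:**
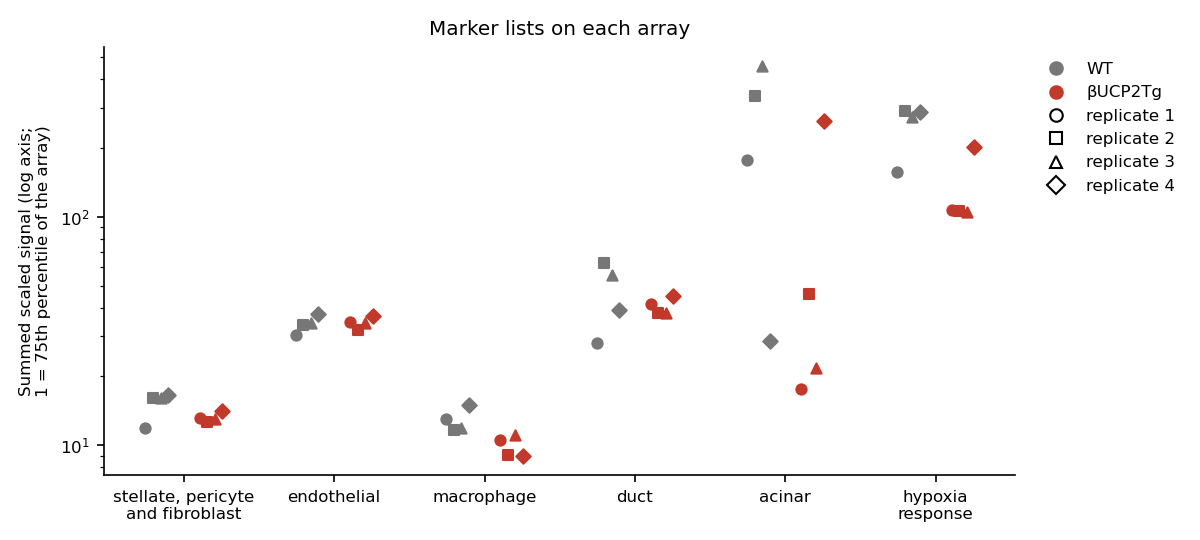
Summed scaled signal of marker lists on each array (y axis, log scale, where 1 is the 75th percentile of the array), WT in grey and βUCP2Tg in red. The sums of stellate, pericyte and fibroblast markers lie between 12 and 16.6 on all arrays, those of acinar markers between 17.6 and 455, and in the hypoxia response list βUCP2Tg replicate 4 lies above WT replicate 1.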

How the data were processed

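RNA of 4 βUCP2Tg and 4 WT islet samples was labelled with Cy3 and hybridised to Agilent mouse arrays. The authors extracted spot intensity values, which the deposited scanner files hold on a linear scale after background subtraction, with Agilent Feature Extraction (version 9.1 in the submitters' processing notes). The authors also deposited a GeneSpring table with normalized log2 values, each equal to log2 of the intensity minus a constant per array. Its fold changes and p-values of the authors' own comparison, a moderated t-test, were not used. The build in the file headers is mm9, and RefSeq tables on GRCm38.p6 gave promoter sequences and neighbours.

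Spots that were controls or outliers were dropped, and log2 intensities were centred on the 75th percentile of their array before spots of a probe were averaged. A measured probe was one of which 50% or more of the remaining spots were well above background. Probes measured on 4 or more of the 8 arrays were tested with limma 3.58.1 (lmFit and eBayes, R 4.3.3) and Benjamini-Hochberg adjustment over 35363 probes. Calls needed an adjusted p under 0.05 and over 1.5-fold. Counts over all genes use 1 probe per gene, chosen as for the collagen genes. Correlations and their permutation p were computed with numpy 2.4.6, with ranks from scipy 1.17.1, and plots were drawn with matplotlib 3.10.9.

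Between 33191 and 36320 probes per array were well above background. The number of arrays limits the precision. The arrays of a genotype lay together in a row of the slide, so position and genotype cannot be told apart. On simulated data with 200 of 35343 probes changed between βUCP2Tg and WT, the test found 61% of the 2-fold and 90% of the 4-fold changes and made 7 false calls. The simulated noise was drawn independently for each probe and array, so no array stood apart as WT replicate 1 and βUCP2Tg replicate 4 did. These shares may therefore not hold for the real arrays.

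The collagen genes, the gene lists and the rule for named genes were chosen with earlier results of these data known. By that rule, 18 genes (fibrillar, basement membrane, type VI and VIII chains, *Col14a1*, *Col18a1*, called genes and the largest changes in each direction) are given for every array. Of 219 genes in the lists, 217 were found, 2 of them through synonyms. The alternatives were other filters on dim probes, quantile normalization, a percentile taken only over probes that all arrays measured, normexp background correction (offset 50), the deposited values, outlier spots kept, an intensity trend, an ordinary Student's t-test, other limits on the fold change, other rules for the probes of a gene, the replicate block, and leaving out arrays. With both WT replicate 1 and βUCP2Tg replicate 4 left out, an alternative chosen after seeing the data, each group holds 3 arrays.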

Additional observations from a re-analysis of the deposited data

Results flagged for a closer look

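In 12 of 90 groups of 4 arrays, a single array lay far from the others, the ratio of its gap from the next value to the whole range being above Dixon's 95% critical value. Chance flags about 1 in 20 groups, which is 4.5 here. Among the collagen genes, WT replicate 1 stood apart in *Col18a1* (ratio 0.905, with a log2 signal of -0.41 where the others of its group had -0.10 to -0.07) and in *Col11a1* (0.862, -4.56 against -4.54). WT replicate 2 stood apart in *Col26a1* (0.933, -1.22 against -2.20 to -2.14), βUCP2Tg replicate 3 in *Col1a2* (0.844, -0.43 against -0.65 to -0.61), and βUCP2Tg replicate 4 in *Col20a1* (0.89, -0.80 against -1.47 to -1.40).

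Among the summed levels, WT replicate 1 stood apart in the collagen genes (0.874, 14.1 against 16.2 to 16.6), in the stellate cell, pericyte and fibroblast markers (0.888, 12 against 16.1 to 16.6) and in the hypoxia response (0.872, 158 against 274 to 291). βUCP2Tg replicate 4 stood apart in the hypoxia response (0.982, 202 against 105 to 107.1) and in the acinar markers (0.885, 263 against 17.6 to 45.7). WT replicate 4 stood apart in collagen modification and folding (0.902, 110 against 97.9 to 99.1), and βUCP2Tg replicate 1 in the other basement membrane proteins (0.85, 20.7 against 24.1 to 24.7).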

How the results depend on the processing

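The call of *Col6a1* was the only collagen call with all arrays and the settings of the report. The count of collagen genes called higher was 0 with no filter on dim probes, with a filter at 1 array, with Student's t-test after adjustment and with a 2-fold limit, and 4 with that t-test before adjustment. The count called lower was 1 with the filter at all 8 arrays, with an intensity trend and with the mean of a gene's probes, 2 with normexp and 3 with the unadjusted t-test. With WT replicate 1 and βUCP2Tg replicate 4 both left out it was 3 higher and 4 lower, *Col1a1* turned to -0.037 and *Col6a3* to 0.52. With any 1 array left out, the count lay between 0 and 4 for higher and between 0 and 3 for lower, and the median log2 fold change of the tested collagen genes between -0.026 and 0.089. Normexp moved this median to -0.12 and turned *Col5a1* (-0.023), *Col4a5* (-0.17) and *Col22a1* (-0.046), and *Col6a3* turned to 0.048 with quantile normalization, to 0.0012 with the percentile over probes measured on all arrays and to 0.0095 with the deposited values. Leaving out an array, *Col1a1* lay between -0.043 and 0.65, *Col5a1* between -0.047 and 0.22 and *Col6a3* between -0.33 and 0.37. The cause of these turns was not tested. Over all genes 86 were called, against 14 with no filter, 23 with a filter at 1 array, 138 at all 8 arrays, 461 with normexp, 210 with an intensity trend, 165 with the mean of a gene's probes, 17 and 1302 with the t-test adjusted and not, and 56 with a 2-fold limit. The scaling alternatives moved the median of all genes to values between -0.03 and 0.07. Dim probes limit *Col8a2*, *Col22a1*, *Col4a5*, *Col14a1*, *Col9a3* and *Col6a5*.

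The labels do not say whether the replicate number pairs the samples, and correlations between arrays cannot exclude a pairing. The correlations of same-numbered arrays were 0.437, -0.0466, -0.0086 and -0.241, and only replicate 1 correlated best with its own number. With the replicate block, 0 collagen genes were called higher, 9 genes were called over all genes by limma, and the adjusted p of *Col6a1* was 0.131.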
